A study of Mus musculus with 2 samples.

Results

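Among liver sinusoidal endothelial cells (LSECs) that lacked *Maf* transcripts, a small group was chosen by UMIs of *Kcne3* and was examined here. Its members were 174 barcodes of the *Maf* LSEC-KO library, of 7091 barcodes in that library and 12755 in both libraries. They were chosen by measured values. A member had at least 1500 UMIs (unique molecular identifiers, each standing for 1 captured transcript) and 750 genes, at least 2 UMIs of the endothelial genes *Pecam1*, *Cdh5* and *Ptprb* together, and no UMI of *Ptprc*, *Adgre1*, *Cd79a* or *Dcn*, which mark leukocytes, macrophages, B cells and mesenchymal cells. It also had no UMI of *Vwf*, a gene of large vessels, of *Maf*, or of the proliferation genes *Mki67* and *Top2a*. It had at least 1 *Kcne3* UMI, and fewer than 400 UMIs of the capillary gene *Ly6c1* per 1000000 of all its UMIs. Of 4052 endothelial barcodes in the library, 1543 had no UMI of *Vwf*, *Maf*, *Mki67* or *Top2a*. Of these, 879 were below the *Ly6c1* limit, and 174 of the 879 were members. The other 705 barcodes of the same gate, with 0 *Kcne3* UMIs, are called *Kcne3*-negative. The third group was 3985 control LSECs, which were endothelial barcodes of the control library with no UMI of *Vwf*, *Mki67* or *Top2a*, whatever their *Maf* or *Ly6c1* level.

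Single-cell RNA sequencing was performed with 1 library per genotype, each from a pool of 3 mice. *Maf* LSEC-KO mice carried *Maf* fl/fl together with the *Clec4g-iCre* transgene, in which the promoter of the LSEC gene *Clec4g* drives Cre, so that the deletion acts in *Clec4g*-expressing endothelium and not in all liver endothelium. The control library is labelled WT. According to the methods, control animals were littermates without Cre that carried floxed *Maf* alleles. Cells of both libraries were freed by collagenase, enriched on a density gradient and selected with beads against CD146, so endothelium was enriched and other liver cells remained. For the study as a whole the methods give female and male mice of more than one age on a standard rodent diet, and which of them entered these pools is not given in the sources used here. With 1 library per genotype, the genotype cannot be told apart from the pool, the preparation day or the library, and no test between conditions was possible. Intervals are exact and at 95%, and they cover counting error only, because cells of 1 library are not replicates.

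Tip cells are the leading cells of a vascular sprout. They answer vascular endothelial growth factor (VEGF) with filopodia and migration, and they restrain their neighbours, the stalk cells, through the Notch ligand *Dll4*. *Esm1* encodes endocan, a proteoglycan secreted by tip cells under VEGF. *Kcne3* encodes an accessory subunit of voltage-gated potassium channels and is likewise used as a tip cell marker. Healthy LSECs are fenestrated scavenger cells without a basement membrane that carry *Stab2*, *Lyve1* and *Fcgr2b*. In capillarization they lose these traits and take on genes of continuous capillaries such as *Cd34*.

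*Kcne3* (ENSMUSG00000035165) lies on chromosome 7 of mm10 at 100176502 to 100184869, on the plus strand. The antisense gene *Gm34821* spans it on the minus strand, and members held 4 UMIs of that gene. *Lipt2*, a lipoyl transferase gene that will recur in the results, ends 15136 bases before *Kcne3* on the same strand. *Esm1* (ENSMUSG00000042379) lies on chromosome 13 at 113209659 to 113218098, on the plus strand. The 250 bases before the start of 3 genes with high ratios in members are given below, one for each outcome of a motif search, with the motif in capitals where there is one. The motifs searched on both strands were the AP-1 site TGACTCA, read as TGAGTCA on the other strand, and the E-box CACGTG, which reads the same on both strands and does not overlap the AP-1 site. Sequences are from RefSeq on GRCm38.p6. *Plaur*, encoding the urokinase receptor, held 1 AP-1 match (chr7:24462233-24462482, plus strand). *Kcnj2*, an inward-rectifier potassium channel gene, held 1 E-box match (chr11:111065914-111066163, plus strand). *Esm1* held neither (chr13:113209409-113209658, plus strand).
Plaur: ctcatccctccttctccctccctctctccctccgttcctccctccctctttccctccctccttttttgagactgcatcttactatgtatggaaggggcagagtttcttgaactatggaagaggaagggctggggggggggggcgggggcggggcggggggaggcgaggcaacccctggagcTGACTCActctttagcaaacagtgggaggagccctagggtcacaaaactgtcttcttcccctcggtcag
Kcnj2: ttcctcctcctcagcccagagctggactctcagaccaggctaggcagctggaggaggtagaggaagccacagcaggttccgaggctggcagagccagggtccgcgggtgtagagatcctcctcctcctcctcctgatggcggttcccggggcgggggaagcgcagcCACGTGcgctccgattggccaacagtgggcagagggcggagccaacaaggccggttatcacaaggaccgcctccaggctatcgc
Esm1: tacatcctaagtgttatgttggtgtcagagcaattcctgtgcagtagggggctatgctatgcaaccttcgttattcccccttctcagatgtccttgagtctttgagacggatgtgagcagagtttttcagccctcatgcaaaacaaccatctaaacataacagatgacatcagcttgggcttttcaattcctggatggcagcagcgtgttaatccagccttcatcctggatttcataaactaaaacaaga
These 3 were picked to show each outcome and are no sample of the higher genes. The windows of *Odc1* and *Adm*, also higher in members, and the 2 windows listed for *Kcne3* start sites held neither motif. An AP-1 match was found in 1466 of 32851 promoters of this length (4.46%), in 216 of 5906 promoters of the genes compared (3.66%) and in 10 of 173 promoters of genes higher in members than in *Kcne3*-negative cells (5.78%). It was found in 10 of 171 promoters of genes that were lower (5.85%). For the E-box the shares were 6.02% of all promoters, 10.5% of those of the genes compared, 9.83% of those higher and 8.19% of those lower. A match is a description of the sequence and does not show that a factor bound there.

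Members were deep barcodes. They held between 2100 and 52122 UMIs, with a median of 16601.5, whereas the median was 9729 in *Kcne3*-negative cells and 8376 in control LSECs. The median share of UMIs from mitochondrial genes was 4.14%, 4.60% and 4.29% in the 3 groups, and the share from ribosomal protein genes was 19.9%, 15.9% and 7.21%. Levels are therefore given as CPM, the UMIs of a gene per 1000000 UMIs that belong to neither mitochondrial nor ribosomal protein genes, summed over the cells of a group. The targeted gene *Maf* went with the labels. Among endothelial barcodes without UMIs of *Vwf*, *Mki67* or *Top2a* it had a UMI in 99.4% of 3985 control barcodes and 21.8% of 1974 barcodes of the *Maf* LSEC-KO library, at 3521 and 186 CPM. The 2 libraries shared 10 cell barcodes, none of them a member. A Y-linked UMI was found in 113 of the 174 members (64.9%) and *Xist* in none. In *Kcne3*-negative cells a Y-linked UMI was found in 384 (54.5%) and *Xist* in 3. In control LSECs the numbers were 2731 (68.5%) and 2, so *Xist* was nearly absent from every group. Of the members, 79 had 1 *Kcne3* UMI, 37 had 2, 19 had 3, and the highest count was 16. Summed over members, 493 *Kcne3* UMIs gave 217 CPM (198 to 237). These values follow from the rule.

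The endothelial label went against the data in 6 of the 174 members. The other 168 had a median of 46.5 UMIs of *Pecam1*, *Cdh5* and *Ptprb* together and at most 1 of 9 biliary genes, but 4 of them had only 3 or 4 such UMIs, so the label rests on few UMIs there. The 6 had 2 or 3 such UMIs and UMIs of 8 or 9 of the biliary genes, which code for keratins, epithelial adhesion proteins and the ductal transcription factor *Sox9*. In these 6 barcodes *Krt19* reached 1114 CPM and *Spp1*, the osteopontin gene, 15762 CPM. All 84 *Krt19* UMIs of members were in the 6. *Kdr*, the main VEGF receptor of endothelium, was at 66.3 CPM in them against 3011 CPM in the other 168, and *Esm1*, *Cd34* and *Stab2* were at 0. The 6 are called biliary barcodes here, by their leading genes. They held 3.32% of the UMIs of all members. In the whole *Maf* LSEC-KO library, 56 barcodes had at least 4 biliary genes and 29 of them had a *Kcne3* UMI (51.8%, 38.0 to 65.3). The biliary gene list was chosen after the values were seen. The groups used for comparison held few such barcodes, 5 of 705 *Kcne3*-negative cells and 7 of 3985 control LSECs. The plot of endothelial UMIs against biliary genes shows the 6 apart from all other members.

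**Figure D1:**
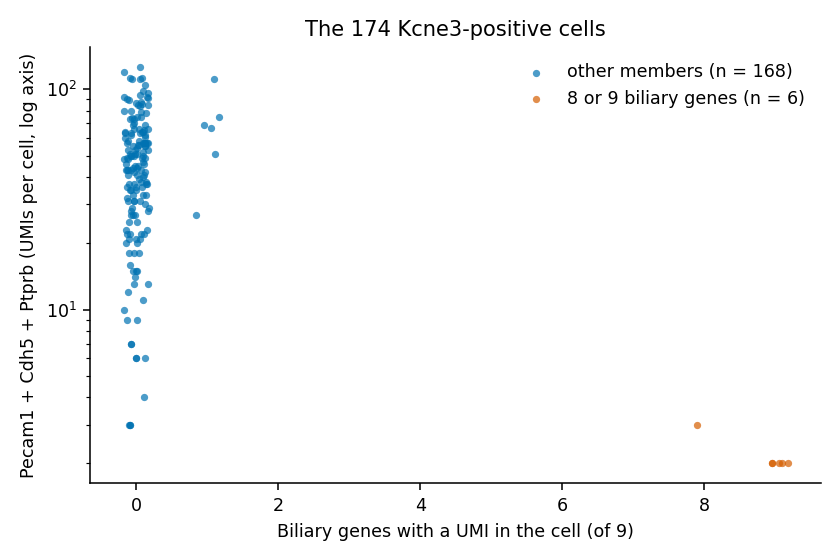
Each point is 1 of the 174 members, plotted by the number of biliary genes with a UMI out of 9 (horizontal axis) and by its UMIs of *Pecam1*, *Cdh5* and *Ptprb* together (vertical axis, log scale), and points are shifted slightly sideways to show overlapping ones. The 6 biliary barcodes lie at 8 or 9 biliary genes with 2 or 3 endothelial UMIs, and the other 168 members lie at 0 or 1 biliary gene.

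Markers of other cell types were low in members and their part in the results was not tested unless a value is given. The 9 stellate markers summed to 22.4 CPM in members, 13.3 in *Kcne3*-negative cells and 9.84 in control LSECs, and to 5.01 in members without the biliary barcodes. *Pdgfrb*, *Col1a1* and *Dcn* were at 0 in members. The 8 hepatocyte markers summed to 264, 165 and 249 CPM in the 3 groups, and to 66.0 in members without the biliary barcodes. The 8 macrophage markers summed to 80.5, 110 and 77.0 CPM, with *Adgre1* at 0 by the rule, and 64.9% of members had a UMI of one of them against 50.8% of *Kcne3*-negative cells. The 8 lymphocyte markers summed to 5.72, 7.57 and 6.13 CPM, with 4 genes at 0 in members, and the 8 lymphatic and large vessel markers to 330, 427 and 485 CPM. The 5 erythroid genes summed to 38.7 CPM in members, 10.8 in *Kcne3*-negative cells and 1296 in control LSECs. In the 51 members without any stellate, macrophage or lymphocyte marker UMI, *Esm1* was higher than in *Kcne3*-negative cells of the same kind by 2.86 on the log2 scale, as against 2.45 over all members.

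The comparison with *Kcne3*-negative cells asked what else set members apart from cells of the same library and the same gate. Members carried more RNA of *Esm1*, of the polyamine enzyme *Odc1* and of the potassium channel gene *Kcnj2*. Of 26 tip cell genes compared, 6 were higher, and the median log2 ratio of these 26 was 0.17. Members carried less RNA of several zonal and arterial genes. Since the cells on both sides came from 1 library and were split by 1 of their own genes, the values describe these cells. A gene was compared if it reached 20 CPM in either group, and it was counted as higher or lower past 1.5-fold. Of 7387 genes, 255 were higher in members (3.45%) and 213 lower (2.88%). Scaling by trimmed means (TMM) turned this split to 202 higher and 259 lower. Without barcodes holding at least 2 biliary genes, 216 of 7351 genes were higher (2.94%) and 218 lower (2.97%). Of the genes called with all members, 195 higher and 195 lower genes were called in this comparison as well.

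Of the 15 genes with the highest ratios, 7 had over 50% of their member UMIs in the 6 biliary barcodes. They were *Sox9*, *Ces1d*, *Krt19*, *Cldn7*, *Tm4sf4*, *Ezr* and *Tstd1*. *Tnfrsf12a*, the TWEAK receptor gene, had 49.4% of its UMIs there. The other genes of this group rested mainly on the other 168 members. *Esm1* was at 347 CPM (323 to 372) in members and at 63.3 CPM in *Kcne3*-negative cells, a log2 ratio of 2.45 (2.27 to 2.63), and none of its 788 UMIs in members came from the biliary barcodes. *Odc1*, the first enzyme of polyamine synthesis, was at 515 against 108 CPM (log2 ratio 2.25, 2.11 to 2.39). *Kcnj2* was at 81.8 against 18.5 CPM (log2 ratio 2.14, 1.80 to 2.50). *Xylt1*, which starts glycosaminoglycan chains on proteoglycan cores, was at 29.5 against 4.54 CPM, and *Maff*, a small *Maf* protein gene, at 29.0 against 6.73 CPM. *Ccl2*, a monocyte chemokine, had the highest ratio at 22.4 against 1.68 CPM, but only 6.32% of members had a UMI of it. *Ccl5* was likewise carried by 5.17% of members. Of the 2 groups, only members reached 20 CPM for *Kcnj2*, *Xylt1*, *Maff*, *Ccl2* and *Ccl5*, so these genes could not have been counted as lower. Over all 15, *Esm1*, *Odc1* and *Kcnj2* were thus the genes with both a high ratio and UMIs in a large share of members, 56.3%, 78.7% and 36.2%.

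Leaving out the biliary barcodes brought other genes into the highest 15, and these were named after their values were seen. *Lipt2* was at 46.0 CPM in the 168 members and 12.3 CPM in *Kcne3*-negative cells. Its position upstream of *Kcne3* on the same strand is given above, and whether reads of the region were shared between both genes was not tested. *Plaur* was at 56.9 against 15.7 CPM. *Kit*, the stem cell factor receptor gene, was at 127 against 40.5 CPM. *Abcc9*, a subunit of ATP-sensitive potassium channels, was at 185 against 66.2 CPM. The gap junction gene *Gja1* (log2 ratio 1.60), the adhesion gene *Clmp* (1.52), the growth regulator *Mycn* (1.38) and *Nol10* (1.39), a nucleolar gene located 114698 bases upstream of *Odc1*, made up the rest.

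The 15 lowest ratios held angiocrine Wnt signals and arterial genes. *Wnt2* was at 7.04 CPM in members and 40.4 CPM in *Kcne3*-negative cells (log2 ratio -2.52, -3.35 to -1.79). *Rspo3*, which strengthens Wnt signals and marks pericentral endothelium, was at 3.52 against 22.7 CPM (-2.69, -3.93 to -1.67). UMIs of *Rspo3* were carried by 4.02% of members and 5.11% of *Kcne3*-negative cells, so the difference lay in few cells. *Flrt2*, an axon guidance and adhesion gene, was at 50.2 against 212 CPM (-2.08, -2.37 to -1.80). *Gja4*, the arterial connexin gene, was at 26.8 against 101 CPM, and *Cyp26b1*, which degrades retinoic acid, at 44.0 against 155 CPM. *Col5a2* was at 37.8 against 118 CPM and the junction gene *Jam2* at 27.7 against 85.8 CPM. The Notch ligand *Jag1* was at 8.80 against 25.2 CPM. *Plcb1*, *Gm47405*, *Glp1r*, *Fabp1*, *Pdlim3*, *Lmo7* and *Fam189a2* completed the 15, with log2 ratios from -2.04 to -1.57.

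The tip cell list had 35 genes, of which 26 other than *Kcne3* reached the minimum level. Of these 26, 6 were higher in members and 0 lower. The 6 were *Esm1*, *Plaur* (log2 ratio 1.85), the basement membrane gene *Nid2* (1.23), the vasoactive peptide gene *Adm* (1.19), the Tie2 ligand gene *Angpt2* (1.18) and *Inhbb* (0.66), a subunit of activin. The median over the list was 0.17, against 0.03 over all genes compared, and 0.20 without biliary barcodes. The receptors and the Notch ligand of tip cells were at similar levels in both groups. *Kdr* was at 2914 against 3010 CPM (log2 ratio -0.05), *Nrp1*, a VEGF co-receptor gene, at 2014 against 2208 CPM (-0.13), and *Dll4* at 223 against 213 CPM (0.06). *Pdgfb* was at 151 against 121 CPM and *Cd34* at 379 against 338 CPM. *Cxcr4*, a chemokine receptor gene of tip cells, was at 11.0 against 17.3 CPM. *Apln* and *Pgf* had 0 UMIs in members. Of the 26, 21 had a ratio above 0 (55.2% of all genes compared did), most of them by less than 1.5-fold, as the plot of the list shows.

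**Figure D2:**
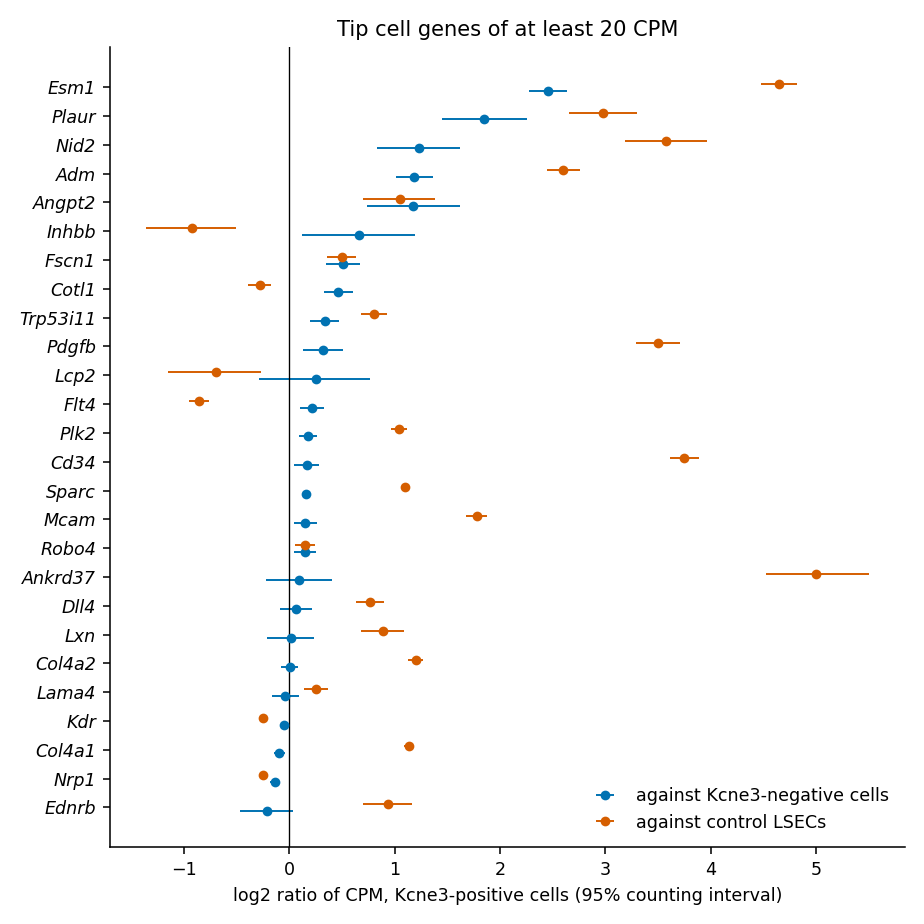
Log2 ratio of CPM in all members over *Kcne3*-negative cells (blue) and over control LSECs (orange), with exact 95% Poisson intervals. Genes are those of the tip cell list that reached 20 CPM in members or *Kcne3*-negative cells. Against *Kcne3*-negative cells, *Esm1* lies at 2.45 and *Plaur* at 1.85, whereas *Kdr*, *Dll4* and *Nrp1* lie within 0.13 of 0.

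In the VEGF list, 1 of 8 genes was higher, *Vegfa* with a log2 ratio of 1.25, which was 0.97 without biliary barcodes. Of 12 stalk and Notch response genes, *Nrarp* (0.62) and *Aplnr*, the apelin receptor gene (0.77), were higher and *Jag1* was lower. Under TMM scaling 1 of these 12 was higher. In the potassium channel list, *Kcnj2* was the only higher gene of 3 compared. *Kcnk6* was at 101 against 90.7 CPM. *Kcnq1*, a pore-forming partner of *Kcne3* in other tissues, was at 15.8 against 17.0 CPM, and *Kcne1* and *Kcne4* had 0 UMIs in members.

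The profibrotic angiocrine list was split, with 3 of 13 genes higher and 3 lower. *Ccn2*, the connective tissue growth factor gene, was at 303 against 185 CPM and, with *Esm1* and *Inhbb*, was higher. *Igfbp5* was at 24.6 against 61.9 CPM and *Hgf* at 55.4 against 91.4 CPM, both lower, as was *Flrt2*. Of 13 basement membrane genes, *Nid2* was higher and *Lama3* lower (-1.06), while the collagen IV genes *Col4a1* (-0.09) and *Col4a2* (0.00) were close to equal. Of 16 continuous capillary genes, 0 were higher and *Cavin2* was lower (-0.74). Under TMM scaling 3 of the 16 were lower.

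Of 17 LSEC identity genes, *Lyve1* and *Clec1b* were higher and *Wnt2*, *Msr1* and *Ehd3* lower. *Lyve1*, a hyaluronan receptor gene, was at 538 CPM in members against 343 CPM (log2 ratio 0.65, 0.55 to 0.75), and *Clec1b* at 198 against 116 CPM. *Stab2* was at 150 against 139 CPM and *Clec4g* at 1315 against 1584 CPM. Zonal genes leaned the other way. Of 11 periportal and arterial genes, 6 were lower and 0 higher, among them *Efnb1*, an ephrin ligand gene, at 172 against 354 CPM and the netrin gene *Ntn4* at 114 against 202 CPM, and the median was -0.66. Of 6 pericentral genes, *Wnt2*, *Rspo3* and *Thbd* were lower and *Kit* was higher.

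Of 18 immediate early genes, *Myc* (0.87) and *Nr4a1* (0.59) were higher and the flow-induced factors *Klf2* and *Klf4* lower. Under the 3 other scalings *Nr4a1* was between 0.54 and 0.55 and fell short of the limit. *Klf2* was at 313 against 607 CPM (log2 ratio -0.96, -1.07 to -0.84). Of 10 heat shock genes, 0 were higher and 0 lower, and the same held for 6 nuclear RNAs. Of 21 glycolysis and hypoxia genes, 3 were higher and 0 lower, with *Slc2a1*, a glucose transporter gene, at 39.2 against 18.3 CPM besides *Vegfa* and *Adm*. Of 10 G1 and *Myc* genes, *Myc*, *Mycn* and *Cdk6* were higher and the cell cycle inhibitor *Cdkn1c* lower, whereas 0 of 10 S phase genes passed the limit in either direction. Of 12 interferon-stimulated genes, the chemokine gene *Cxcl9* was higher at 595 against 346 CPM, and *Ifit3*, *Rsad2* and *Usp18* were lower. Of 5 hepatocyte markers compared, *Alb* and *Ttr* were higher and *Fabp1* lower, and *Alb* fell from 128 to 15.5 CPM when the biliary barcodes were left out. Of 4 sex-linked genes 1 was lower. Of the 2 macrophage markers and the 2 lymphatic and large vessel markers compared, none passed the limit.

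The number of *Kcne3* UMIs per cell separated the cells further, and this was examined without barcodes holding at least 2 biliary genes. Cells with 0, 1, 2, 3 to 5 and at least 6 *Kcne3* UMIs numbered 700, 77, 34, 39 and 18. *Esm1* was at 63.8, 241, 276, 426 and 689 CPM in these classes. The share of cells with an *Esm1* UMI was 21.7%, 41.6%, 52.9%, 79.5% and 94.4%. Median depth also increased over the classes, from 9728 to 22138.5 UMIs, and cells thinned to 3000 UMIs gave *Esm1* shares of 10.4%, 22.9%, 31.1%, 46.7% and 58.4%. *Odc1* followed the same order, from 107 CPM at 0 *Kcne3* UMIs to 920 CPM at 6 or more. *Kcnj2* was at 18.7, 58.6, 53.4, 90.8 and 194 CPM and *Plaur* at 15.7, 25.8, 47.0, 68.1 and 138 CPM. Several lower genes ran the opposite way. *Flrt2* was at 215, 78.5, 51.3, 26.2 and 6.59 CPM, and *Gja4* went from 101 to 3.30 CPM. *Lifr*, a cytokine receptor gene named after its values were seen, went from 684 to 208 CPM. *Cd34* stayed between 342 and 416 CPM, *Stab2* between 129 and 184 CPM, and *Myc* was at 61.8 CPM without *Kcne3* UMIs and between 109 and 128 CPM in all classes with one. The plot of levels by *Kcne3* class shows these opposite courses.

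**Figure D3:**
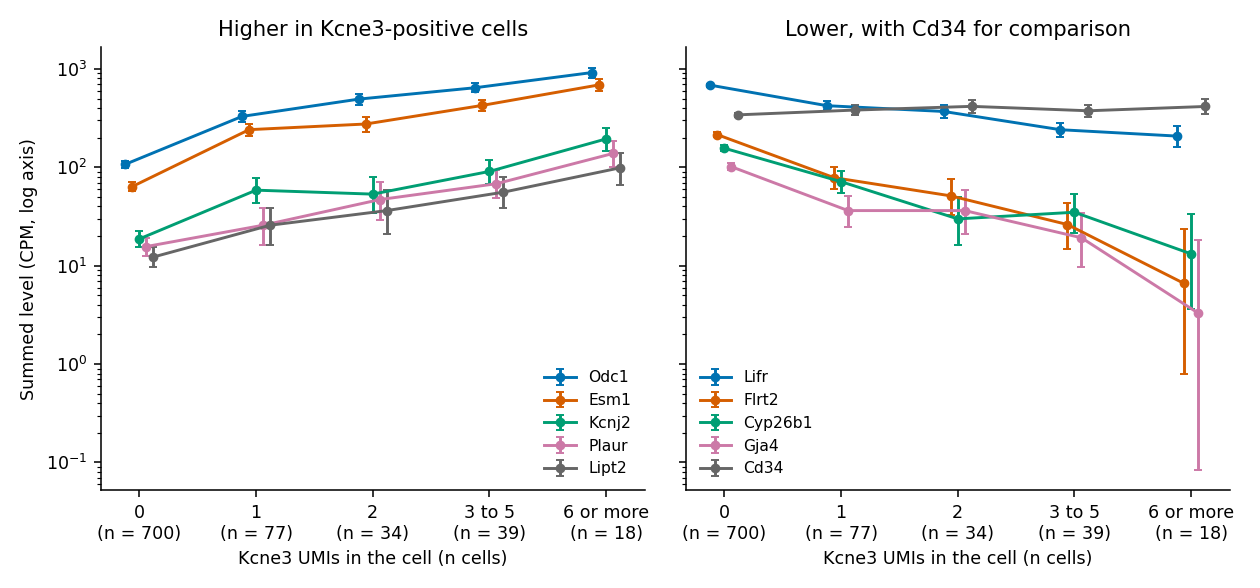
Level in CPM (log scale) of named genes against the class of *Kcne3* UMIs per cell, in the gated cells of the *Maf* LSEC-KO library without barcodes holding at least 2 biliary genes, with exact 95% Poisson intervals. *Esm1* goes from 63.8 CPM at 0 *Kcne3* UMIs to 689 CPM at 6 or more, and *Flrt2* from 215 to 6.59 CPM.

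Deeper cells were members more often. When the 879 gated cells were put into 5 groups of equal number by total UMIs, 3.45%, 12.1%, 16.1%, 21.4% and 43.7% of them had a *Kcne3* UMI, from the shallowest to the deepest group. A cell with 0 *Kcne3* UMIs may thus still have expressed the gene below detection. The *Esm1* difference was present within each depth group but the shallowest, which had 6 members with 0 *Esm1* UMIs. In the others, *Esm1* was at 466, 457, 380 and 330 CPM in members and at 54.9, 68.0, 64.9 and 63.3 CPM in *Kcne3*-negative cells. *Odc1* was at 456, 478, 462 and 561 CPM against 102, 72.8, 119 and 124 CPM. *Flrt2* was at 114, 33.5, 54.6 and 45.7 CPM against 189, 208, 226 and 228 CPM. With *Kcne3*-negative cells reweighted to the depth of members and biliary barcodes left out, the log2 ratio of *Esm1* was 2.32 and that of *Odc1* was 2.16. *Lyve1* went from 0.69 to 0.42 and was then under the 1.5-fold limit, and *Gja4* (-1.84), *Efnb1* (-0.91) and *Klf2* (-0.91) remained past it.

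The *Ly6c1* limit of the rule did not coincide with a step in *Esm1*. Members with 300 to under 400 *Ly6c1* UMIs per 1000000 UMIs numbered 19 and had *Esm1* at 249 CPM, against 64.8 CPM in 91 *Kcne3*-negative cells of the same range. Just outside the limit, at 400 to under 500, 29 cells with a *Kcne3* UMI had 185 CPM and 94 without had 57.2 CPM. Among gated cells with no *Ly6c1* UMI, 51 members had 340 CPM and 299 *Kcne3*-negative cells 65.4 CPM.

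Members were not alike. Of the 174, 98 had an *Esm1* UMI and 76 had none. The median was 1 *Esm1* UMI and the highest count 47, and the 18 members with most *Esm1* held 51.6% of all *Esm1* UMIs. Within the 168 members other than the biliary barcodes, the 98 with *Esm1* had higher *Plaur* (73.4 against 25.2 CPM) and *Kcnj2* (105 against 45.1 CPM) than the 70 without. *Flrt2* was at 32.5 against 80.9 CPM, *Gja4* at 13.9 against 53.1 CPM and *Cyp26b1* at 27.7 against 78.3 CPM. *Stab2* was at 161 against 142 CPM and *Cd34* at 419 against 341 CPM. Median depth differed here too, with 18733.5 UMIs in members with *Esm1* and 14276.5 in those without.

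The genes whose pattern was most like that of *Kcne3* were ranked by the ratio of the share of cells with a UMI, members over *Kcne3*-negative cells, after thinning. With all members the first 10 were *Ces1d*, *Sox9*, *Cldn7*, *Ccl2*, *Ambp*, *Dsg2*, *Dcdc2a*, *Epcam*, *Krt18* and *Bicc1*, mostly epithelial genes of the biliary barcodes. Without those barcodes they were *Bicc1*, *Ccl2*, *Xylt1*, *Kcnj2*, *Tnfrsf12a*, *Maff*, *Lipt2*, *Esm1*, *Gja1* and *Plaur*. *Kcnj2* was seen in 15.3% of thinned members and 3.73% of thinned *Kcne3*-negative cells, and *Esm1* in 34.1% and 10.4%. *Bicc1* was seen in 0.550% and 0.0852%, so its ratio rested on very few UMIs.

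Over all genes, the nearest neighbours of members were mostly cells without *Kcne3* UMIs. Gated cells of at least 3000 UMIs, without barcodes holding at least 2 biliary genes, were thinned to 1500 UMIs and placed by 1000 variable genes, without the genes of the rule, on 20 principal components. Of these 783 cells, 165 were members (21.1%). Among the 30 nearest neighbours, 20.9% were members around members and 18.2% around *Kcne3*-negative cells. Only 1 of the 165 had a majority of members around it. With the cells above the *Ly6c1* limit placed as well, 18.7% of the neighbours had a *Kcne3* UMI around the 259 cells with one. Around the other cells the share was 14.3%, and among all 1398 cells placed it was 18.5%.

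Cells above the *Ly6c1* limit and the control library took no part in the choice of members, and the same split by *Kcne3* was made there, without barcodes holding at least 2 biliary genes. Among *Ly6c1*-high cells of the *Maf* LSEC-KO library, 94 had a *Kcne3* UMI and 569 had none, with median depths of 20170.5 and 12379 UMIs. Of 7324 genes, 200 were higher in the *Kcne3* cells (2.73%) and 192 lower (2.62%). Of the 216 genes higher in members, 179 were compared there, and 77 of them were higher as well (43.0%) and 1 lower. Of the 218 genes lower in members, 197 were compared, and 64 were lower (32.5%) and 0 higher. With depth reweighted, these shares were 30.8% and 20.9%. *Esm1* was at 242 CPM (217 to 268) against 55.1 CPM, *Odc1* at 244 against 72.2 CPM, *Plaur* at 43.9 against 17.1 CPM and *Kit* at 86.4 against 32.7 CPM. *Gja4* was at 56.7 against 168 CPM, *Cyp26b1* at 128 against 323 CPM and *Klf2* at 393 against 693 CPM. *Ccl5* went the other way, at 27.7 against 82.8 CPM. *Wnt2* was at 26.3 against 38.0 CPM, inside the 1.5-fold limit. With depth reweighted, *Rspo3* had a log2 ratio of 0.92 in *Ly6c1*-high cells, opposite in sign to -1.68 in members. Of 26 tip cell genes, 7 were higher, among them *Esm1*, *Plaur*, *Adm*, *Angpt2* and *Nid2*, and 2 lower, *Igfbp3* and *Ednrb*.

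In the control library, *Kcne3* UMIs were rare. They were found in 72 of 3978 LSECs (1.81%, 1.42 to 2.27). Among barcodes with UMIs of the leukocyte gene *Ptprc* they were found in 1 of 69 (1.45%, 0.0367 to 7.81). The median depths were 8371.5 and 4015 UMIs. The control share lies within the interval of the *Ptprc* barcodes, which rests on 1 barcode. Whether leukocytes here expressed *Kcne3* was not tested, so these barcodes do not set a background level. No background level was thus measured, so the share alone cannot tell expression of *Kcne3* in control LSECs apart from background. In the *Maf* LSEC-KO library the shares were 19.4% of the 868 gated cells and 1.79% of 168 *Ptprc* barcodes. Thinned to 3000 UMIs, the 4 shares were 0.656%, 0.396%, 8.34% and 1.05%. The few control cells with a *Kcne3* UMI differed from the rest in *Esm1*. Of the 72, 20 had an *Esm1* UMI (27.8%, 17.9 to 39.6), against 100 of 3906 without *Kcne3* (2.56%, 2.09 to 3.11). *Esm1* was at 261 CPM (228 to 299) in them and at 7.28 CPM in the rest. A single cell held 34.7% of their 216 *Esm1* UMIs, and without it the level was 173 CPM. Median depths were 12696.5 and 8315.5 UMIs.

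Of 7098 genes compared in control LSECs, 329 were higher in the *Kcne3* cells (4.64%) and 266 lower (3.75%). Of the genes higher in members, 108 were compared, and 43 were higher (39.8%) and 4 lower. Of those lower in members, 183 were compared, and 43 were lower (23.5%) and 6 higher. With depth reweighted, 36.7% and 18.6% were called in the same direction. *Odc1* was at 116 against 25.0 CPM, *Kcnj2* at 49.6 against 7.71 CPM and *Abcc9* at 117 against 22.4 CPM. *Kcnj8*, the pore partner of *Abcc9*, was at 49.6 against 3.01 CPM here, but at 2.20 CPM, or 5 UMIs, in members. *Angpt2* was at 83.5 against 15.9 CPM and *Ccn2* at 265 against 37.8 CPM. *Cyp26b1* was at 393 against 667 CPM and *Gja4* at 58.1 against 98.0 CPM. *Kit* had the opposite order to that in the knockout library, at 229 against 370 CPM. Of 12 interferon-stimulated genes, 7 were higher in the control *Kcne3* cells, among them *Cxcl9* at 2035 against 453 CPM and *Cxcl10* at 966 against 178 CPM, whereas *Cxcl10* was at 271 CPM in members and 301 CPM in *Kcne3*-negative cells. The 4 erythroid genes compared were lower, with *Hbb-bs* at 6.05 against 681 CPM, and 6.20% of all control LSECs had an erythroid UMI. The plot of the 3 splits sets these ratios side by side.

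**Figure D4:**
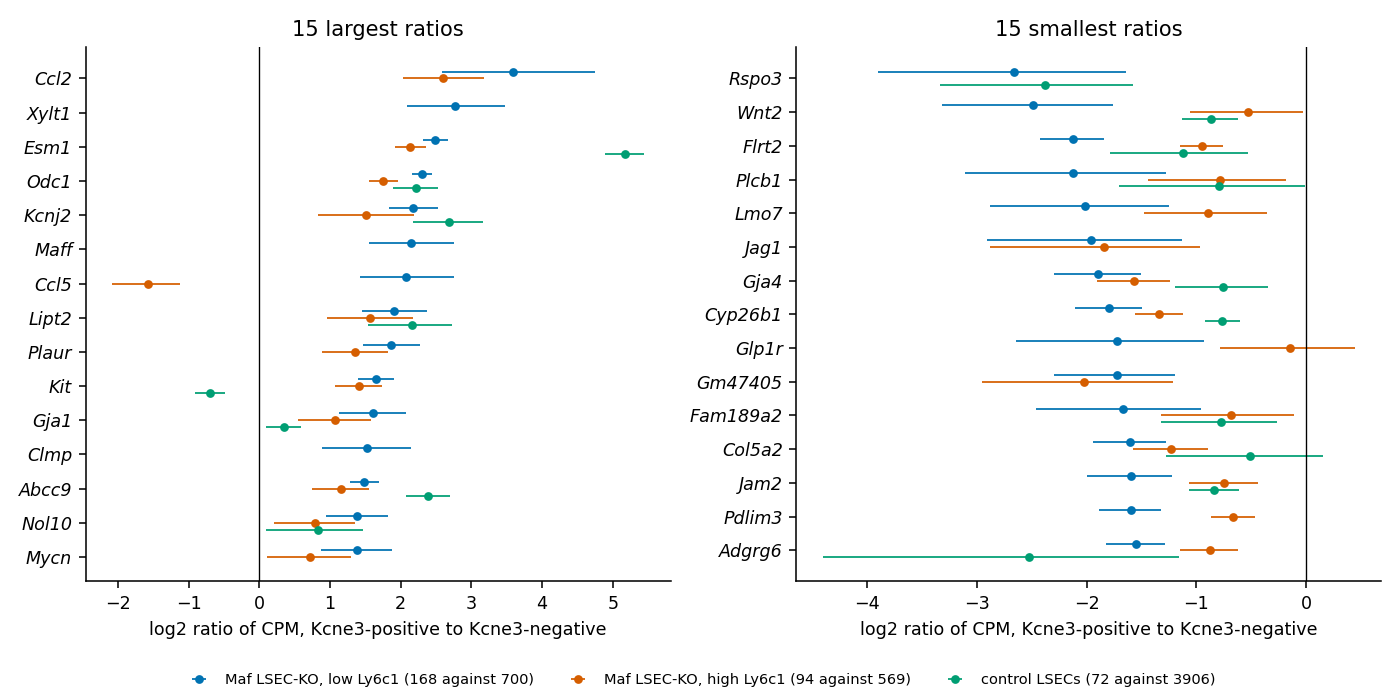
Log2 ratio of CPM in cells with a *Kcne3* UMI over cells without one for the 15 genes with the highest (left) and the lowest (right) ratios in members without biliary barcodes, with exact 95% intervals, in the gated cells below the *Ly6c1* limit, in *Ly6c1*-high cells and in control LSECs. A gene is drawn where it reached 20 CPM, and *Ccl5* and *Kit* each lie below 0 in 1 of the populations although they are above 0 in members.

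The joint presence of *Kcne3* and *Esm1* was found in every class of endothelial barcode that was looked at in the *Maf* LSEC-KO library. Among cells with a *Maf* UMI, *Esm1* was seen in 33 of 55 with *Kcne3* (60.0%) and 96 of 374 without (25.7%). Among cycling cells the numbers were 160 of 259 (61.8%) and 233 of 730 (31.9%), and among cells with *Vwf* UMIs 104 of 176 (59.1%) and 215 of 902 (23.8%). In the gated cells they were 98 of 168 (58.3%) and 152 of 700 (21.7%). These *Esm1* shares were not matched for depth between cells with and without *Kcne3*. Reweighting the 700 gated cells to the depth of members gave 29.8%. The share of cells with a *Kcne3* UMI was 12.8% with *Maf* UMIs, 26.2% in cycling cells and 16.3% with *Vwf* UMIs, at median depths of 11116, 18923 and 15184.5 UMIs. After thinning to 3000 UMIs these shares were 5.36%, 7.59% and 4.50%, against 8.34% in the gated cells.

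**Figure D5:**
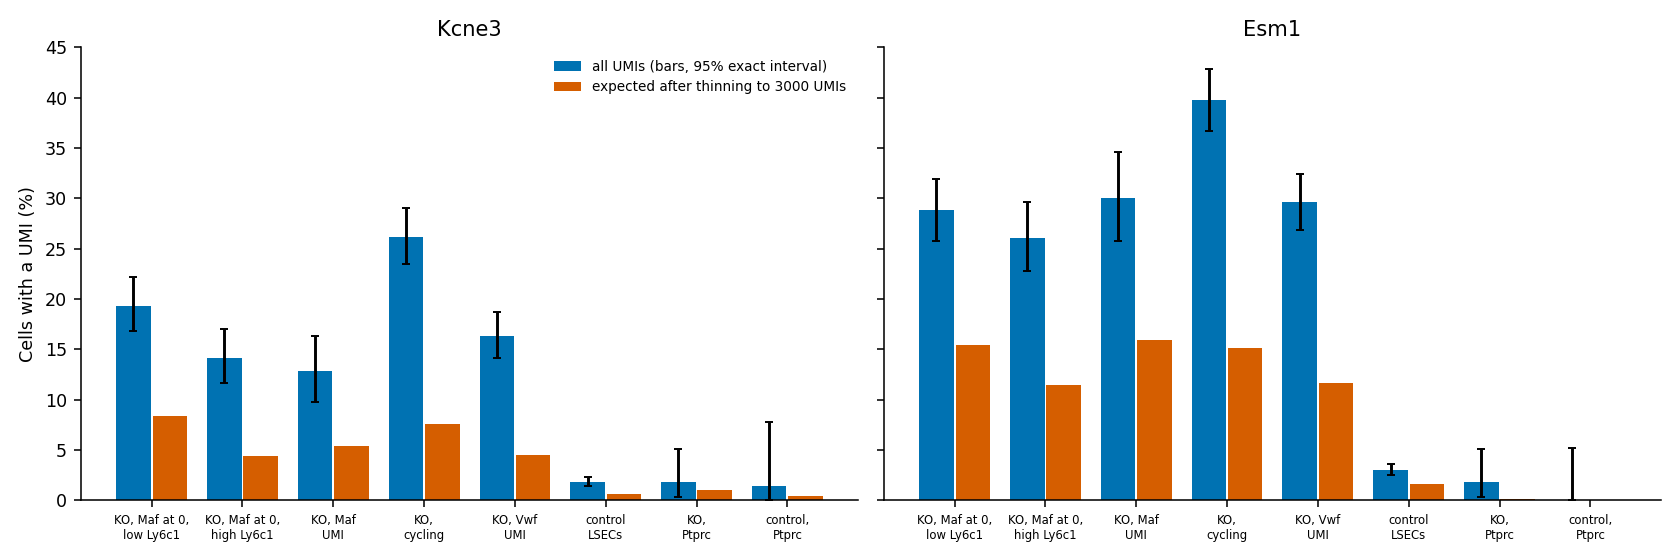
Share of cells with a UMI of *Kcne3* (left) and *Esm1* (right) in 5 classes of endothelial barcodes of the *Maf* LSEC-KO library (KO), in control LSECs and in barcodes with *Ptprc* UMIs, without biliary barcodes among the endothelial classes. Blue bars with exact 95% intervals use all UMIs and orange bars cells thinned to 3000 UMIs. For *Kcne3*, control LSECs are at 1.81% and the *Ptprc* barcodes, which set no background level, at 1.79% and 1.45%.

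The comparison with control LSECs asked how far members stood from LSECs of the control library. Members had low levels of scavenger and identity genes of LSECs and high levels of several capillary, matrix and growth genes. These traits were largely shared by *Kcne3*-negative cells and were not particular to members. Against those cells the median log2 ratio was -0.26 for LSEC identity genes and -0.11 for continuous capillary genes. It was -0.04 for basement membrane genes and 0.30 for G1 and *Myc* genes. Genes were counted past 2-fold. Of 7566 genes, 802 were higher in members (10.6%) and 446 lower (5.89%). Ribosomal protein genes took a larger share of UMIs in members, as given above, and the choice of scaling moved these counts. The median log2 ratio over all genes was 0.14, and -0.11 with CPM over all UMIs, -0.15 with TMM and -0.10 with median-of-ratios scaling. The split of calls turned with it, to 485 higher and 621 lower, 525 and 744, and 564 and 678. Without a minimum level it was 4166 and 1095.

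Among LSEC identity genes, 11 of 18 were lower in members and 0 higher, with a median log2 ratio of -1.34, and 12 were lower under each of the other scalings. *Dnase1l3*, a secreted nuclease gene of LSECs, was at 6.16 CPM in members and 3655 CPM in control LSECs. *Fcgr2b*, the inhibitory Fc receptor gene, was at 148 against 2524 CPM (log2 ratio -4.09, -4.25 to -3.94) and *Stab2* at 150 against 1640 CPM (-3.45, -3.61 to -3.30). *Clec4g*, whose promoter drove Cre, was at 1315 against 3065 CPM. *Lyve1* was at 538 against 709 CPM, so its level in members lay between that of *Kcne3*-negative cells and that of control LSECs. *Wnt2* was at 7.04 against 286 CPM. Of 7 pericentral genes 5 were lower, and of 10 periportal and arterial genes 4 were lower.

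Tip cell genes were higher in 13 of 26 and lower in 0, with a median of 0.99. Under the 3 other scalings 8 were higher and 2 lower. *Esm1* was at 347 against 13.9 CPM (log2 ratio 4.64, 4.47 to 4.82), *Nid2* at 45.3 against 3.80 CPM (3.58) and *Plaur* at 55.9 against 7.10 CPM (2.98). *Adm* was at 215 against 35.4 CPM and *Pdgfb* at 151 against 13.4 CPM. *Angpt2* had a log2 ratio of 1.05, which was 0.79 under TMM scaling. Of 16 continuous capillary genes 4 were higher, *Cd34*, *Plvap*, *Cav1* and *Cavin1*, and the water channel gene *Aqp1* was lower. Under each of the other scalings only 1 was higher. *Cd34* was at 379 against 28.2 CPM (3.75). Of 12 basement membrane genes 7 were higher, and 3 under the other scalings. The lists overlap, so their counts are not independent. *Nid2*, *Col4a1*, *Col4a2* and *Sparc* were counted as higher in both the tip cell and the basement membrane list. *Cd34* was counted in both the tip cell and the continuous capillary list. Of 13 profibrotic angiocrine genes 5 were higher and 1 lower.

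Immediate early genes were higher in 14 of 18, with a median of 1.78, and heat shock genes in 7 of 10. Both groups are known to respond to tissue dissociation, and preparation and genotype cannot be told apart here. *Myc* was at 112 against 4.27 CPM. Of 21 glycolysis and hypoxia genes 17 were higher and 1, *Ndrg1*, lower, and between 11 and 12 were higher under the other scalings. Of 10 S phase genes 4 were higher. Of 12 interferon-stimulated genes 1 was higher, and 0 under the other scalings. Of 8 VEGF genes 2 were higher, *Vegfa* and *Vegfc*, and 0 lower, whereas 2 were higher and 2 lower under each of the other scalings. All 4 erythroid genes compared were lower. A UMI of the erythroid list was found in 8.05% of members and 6.20% of control LSECs, so the difference lay in few cells.

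The highest ratios belonged to genes nearly silent in control LSECs. A ranking by ratio favours such genes, because a gene was compared if it reached 20 CPM in either group. *Aplnr* had 2 UMIs in 3985 control LSECs and was at 102 CPM in members (log2 ratio 10.66, 8.79 to 13.71). *Nav3*, *Uck2*, *Lrrc55*, *Sh3gl3*, *Pcp4l1*, *Fcor*, *Chrm3* and *Lysmd2* were also among the 10 highest. *Pcp4l1*, a small calmodulin-binding protein gene, was at 606 against 2.36 CPM, and *Fcor* at 1014 against 4.12 CPM. Neither differed from *Kcne3*-negative cells past the limit, with 648 and 1006 CPM there. Of the genes named here, *Aplnr*, *Uck2*, *Lrrc55* and *Sh3gl3* were also higher in members than in *Kcne3*-negative cells past 1.5-fold, and *Chrm3* was lower. Among the 10 lowest were *Col13a1*, *Dnase1l3*, *Enpp6*, *Ackr4*, *Tpbgl*, *Slco2a1*, *Hbb-bt*, *Cdh13* and *Gpr155*, with *Col13a1* at 0.440 against 349 CPM.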

How the data were processed

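Single-cell RNA sequencing of liver endothelial cells from control and *Maf* LSEC-KO mice was analysed, with 1 library per genotype. The authors deposited raw UMI counts, without normalization, for 32285 genes in each barcode that reached 500 UMIs. The submitters' processing notes name Cell Ranger 6.0.2, Seurat 5.0.1 and mm10. The subtraction of mean empty-droplet counts described in the methods had not been applied to the deposited matrices, and none was applied here. Gene positions are those of GENCODE M21. The libraries held 47681895 (control) and 89872764 UMIs.

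Counts were summed over the cells of a group and scaled to CPM over all genes but 13 mitochondrial and 101 ribosomal protein genes. The 13 genes of the gating rule were left out of the genes compared. Ratios of CPM have exact Poisson intervals and shares have Clopper-Pearson intervals, at 95%. Where a group had 0 UMIs, the ratio was taken against 3 counts and is a bound. No test was run. Named were all genes of 24 lists (293 genes, 1 not matched), the 15 highest and 15 lowest ratios against *Kcne3*-negative cells, the 10 highest and 10 lowest against control LSECs, and the 10 genes most like *Kcne3*. The members and the lists were chosen with earlier results of these data known. Biliary genes, and genes named without biliary barcodes, were chosen after their values were seen. A few genes that the rule names are not reported here.

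Scrublet (scanpy 1.11.5) gave each barcode a doublet score. Its automatic limit marked 1 control and 12 *Maf* LSEC-KO barcodes and was not used, and the highest 4.531% and 5.673% of scores were left out as an alternative instead. TMM factors were from edgeR 4.0.16, with Python 3.11.15, scipy 1.17.1 and R 4.3.3 for the other steps. The code was tested on simulated counts. Alternatives were other scalings, thinning or reweighting to equal depth, other limits on UMIs, level, *Kcne3* and *Ly6c1*, and the removal of doublet scores, mitochondrial-rich cells and cells with markers of other cell types.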

Additional observations from a re-analysis of the deposited data

How the results depend on the processing

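Of 209 values under 19 alternatives, 17 of them planned, 162 stayed the same, 47 moved and 0 reversed, and the cause was not tested. Staying the same meant within the counting interval, or within 1.5 times the count. For the tip cell median, the interval was that median plus or minus the median half-width of the counting intervals of its genes. Scalings and level limits cannot change the number of members or the *Esm1* shares, so these values were bound to stay. A reversal is a change of sign, which counts and shares cannot have. The split into higher and lower genes did turn with scaling, as given above. The values that moved are given in turn as counts of members, genes past 1.5-fold against *Kcne3*-negative cells, genes past 2-fold against control LSECs, *Esm1* log2 ratios against *Kcne3*-negative cells and against control LSECs, medians of the tip cell list, and *Esm1* shares. With CPM over all UMIs, 168 genes were higher, 485 were higher against control, *Esm1* was at 4.42 against control and the tip median at 0.76. TMM gave 525 higher and 744 lower, 4.38 and 0.67, and median-of-ratios scaling 678 lower, 4.43 and 0.72. The mean over cells gave *Esm1* at 5.003. Reweighting to member depth gave 4.24 and an *Esm1* share of 29.4% in *Kcne3*-negative cells, and, without cells with biliary genes, 4.27 and 29.8%. Thinning gave 5.003 and shares of 32.9% in members and 10.4% in *Kcne3*-negative cells. At least 2 *Kcne3* UMIs left 95 members, 418 genes higher and 342 lower, *Esm1* at 2.73 and 4.93, and a member share of 69.5%. *Ly6c1* below 200 per 1000000 gave *Esm1* at 2.78 and 4.84 and a negative share of 18.5%. No *Ly6c1* limit gave 268 members, 130 genes lower and *Esm1* at 4.46. Without stellate, macrophage or lymphocyte UMIs 51 members remained, with 657 genes higher and 707 lower, *Esm1* at 2.86 and 5.43 and a tip median of 0.45. Y-linked cells gave 113 members, *Esm1* at 2.69 and a negative share of 27.2%, and the matching set with Xist had 0 members and was not run. Without a minimum level 1618 and 1399 genes were higher and lower, and 4166 and 1095 against control, and with 50 CPM 104 and 90, and 454 higher against control. The alternatives without cells with biliary genes were chosen after seeing the data. Doublet scores, mitochondrial share, 3000 UMIs and the *Ly6c1* limit of 800 moved none. No paired analysis was possible because each genotype has 1 library and no test was run. *Kcne3* was at 1 UMI in 79 of 174 members, so depth limits which cells are counted as members.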
